A study of Mus musculus with 12 samples.

Results

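Liver transcripts of 9 genes that make, recycle or break down glutathione, or that supply or spend the cysteine it is built from, were followed across 2 Keap1 genotypes and 2 treatments. The genes were Gclc, Gclm, Gss, Gsr, Slc7a11, Ggt1, Cth, Cbs and Cdo1, and they were taken from the 18193 genes that had an array probe set of their own. A probe set is the group of oligonucleotides whose joint signal stands for a transcript. All probe sets annotated to 1 of these genes alone were used, which gave 14 probe sets for 8 of the 9 genes. No probe set named Ggt1 alone, so Ggt1 has no value. Of the 8 genes, 7 passed the filter on low signal (at least 3 arrays over a log2 value of 5) and were tested, with 12 probe sets, and Slc7a11 did not pass.

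Glutathione is the tripeptide of glutamate, cysteine and glycine, and liver is the main organ that makes and exports it. Glutamate-cysteine ligase joins the amino acids of the rate-limiting step, glutathione synthetase adds glycine, and glutathione reductase returns the oxidised form to the reduced one with NADPH. Cysteine, usually the scarcest of the building blocks, reaches hepatocytes by uptake, by transsulfuration of homocysteine and by breakdown of exported glutathione. The transcription factor Nrf2, which Keap1 marks for degradation, is known to drive several of these genes through antioxidant response elements.

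The 12 male mice were 9 weeks old, were labelled C57BL/6J and gave 1 Affymetrix array each, in 4 groups of 3. The CKO CDDO-Im and CKO vehicle groups had the genotype Albumin-Cre:Keap1(flox/-), in which Cre driven by the albumin promoter acts in hepatocytes and the other Keap1 allele is null in all cells. The WT CDDO-Im and WT vehicle groups were Alb-Cre:Keap1(flox/+) genetic controls, so they too carried Cre and a floxed allele. Cre can act on that allele in their hepatocytes, which keep the intact allele beside it. Keap1 deletion below means CKO against these controls, and their other liver cells also differ by the null allele. Mice received 30 umol of CDDO-Im, a synthetic triterpenoid that activates Nrf2, per kg by gavage, or the DMSO, Cremophor-EL and PBS vehicle alone, and livers were taken 6 h later. Values are the authors' GCRMA log2 signals, so a difference of 1 is a doubling of signal, and the level of a probe set cannot be set against that of another. The limma p-values set a difference between groups against the spread between these mice, and the permutation p-values count arrangements of the group labels. For both the number of arrays limits the precision.

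The Keap1 probe set 1450746_at lay between 2.90 and 3.31 in CKO CDDO-Im livers and between 2.74 and 2.87 in CKO vehicle livers, against 8.46 to 8.89 in WT CDDO-Im and 7.92 to 8.17 in WT vehicle livers. The other Keap1 probe set, 1450747_at, was brighter and separated the genotypes less, with 6.28 to 6.45 in CKO CDDO-Im and 6.15 to 6.51 in CKO vehicle livers, against 7.76 to 8.08 in WT CDDO-Im and 6.58 to 7.48 in WT vehicle livers. In the fit over genes, which took the brighter one, Keap1 differed by -0.68 ± 0.20 between CKO vehicle and WT vehicle livers and was not called (limma adjusted p = 0.0712). Whether either lies in the deleted part of the gene was not known here. All 9 hepatocyte markers on the array were tested, and their summed log2 signal ranged from 137 to 138 over the 12 mice. Among them Fabp1 fell in CKO vehicle livers, by 0.79 on the log2 scale (limma adjusted p = 0.0151). Of the 6 ductular markers on the array 3 stayed under 5 on all arrays. The mouse WT vehicle 2 stood apart in them, with a Krt19 signal of 5.77 and a sum of 28.0, while the sums in the other 3 groups lay between 19.9 and 20.5. Without this mouse, Cth in CKO vehicle against WT vehicle livers and the interaction of Gsr no longer passed (limma adjusted p = 0.0815 and 0.0847), and no other call reported below for the 7 tested genes was lost. Of 7 tested macrophage markers 1 rose in CKO vehicle against WT vehicle livers (Marco, by 2.30 ± 0.46, SE), and the sums of the 8 markers on the array were 68.3 to 74.1 and 64.3 to 72.2 in these groups. Of 6 tested endothelial markers Lyve1 rose in CKO vehicle livers by 2.24 ± 0.46 and in WT CDDO-Im livers by 2.57 ± 0.46, each against WT vehicle. The sums of the 7 endothelial markers were 53.0 to 53.2 in CKO vehicle and 52.2 to 53.8 in WT CDDO-Im livers. They were 51.1 to 52.0 in WT vehicle livers. Lyve1 alone was called, and the median change of the 6 tested markers was -0.11 in CKO vehicle and -0.03 in WT CDDO-Im livers. Kdr and Stab2 had lower means in both groups than in WT vehicle livers. Tek had a higher mean in CKO vehicle and a lower one in WT CDDO-Im livers. Cdh5 and Clec4g had lower means in CKO vehicle and higher ones in WT CDDO-Im livers. Of 6 tested stellate cell and fibroblast markers Reln fell in CKO vehicle livers by 0.51 on the log2 scale, and the sums of the 8 on the array were 52.2 to 54.4, against 53.4 to 56.9 in WT vehicle. Beside these marker calls, 3.25% of all tested genes rose and 3.26% fell in CKO vehicle against WT vehicle livers. In WT CDDO-Im against WT vehicle livers 1.88% rose and 1.76% fell. The part of these other cell types in the results below was not tested. In bulk liver, fewer cells of a type and less RNA per cell cannot be told apart.

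Gclc and Gsr rose both with Keap1 deletion and with CDDO-Im in WT livers, while Gclm passed the test for a rise with CDDO-Im and not with Keap1 deletion. In CKO vehicle against WT vehicle livers 4 of the 7 tested genes rose (Gclc, Gss, Gsr and Cth) and none fell, while 3.25% of all 8338 tested genes rose and 3.26% fell. In WT CDDO-Im against WT vehicle livers 3 rose (Gclc, Gclm and Gsr) and none fell, against 1.88% and 1.76% of all genes. The median change of the 7 genes was 0.52 in CKO vehicle and 0.55 in WT CDDO-Im livers on the log2 scale, beside -0.01 and -0.02 over all tested genes. These 2 comparisons share the WT vehicle mice. The shares over all genes moved with single mice: calls in CKO vehicle against WT vehicle livers numbered 543, against 275 without CKO vehicle mouse 3 and 302 without WT vehicle mouse 1, and those in WT CDDO-Im against WT vehicle livers numbered 304, against 106 without WT CDDO-Im mouse 4. A gene was called changed at a limma p-value under 0.05 after Benjamini-Hochberg adjustment over the 8338 genes.

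In CKO CDDO-Im against CKO vehicle livers none of the 7 genes passed the test, and 0% of all genes rose and 0% fell by limma with that adjustment. At an unadjusted p under 0.05, 1 of the 7 (Gclm) and 790 of the 8338 genes differed. The median change of the 7 was -0.12, beside -0.02 over all genes. In CKO CDDO-Im against WT CDDO-Im livers Gclm alone of the 7 was called, and it fell, with 0.744% of all genes rising and 0.792% falling. In CKO vehicle against WT CDDO-Im livers Gclm again fell and the others were not called, with 2.42% of all genes rising and 1.87% falling. The interaction, which is the drug's change in CKO livers minus that in WT livers, was negative and called for 2 of the 7 genes (Gclc and Gsr). It was called with a positive sign for 0.024% and with a negative sign for 0.252% of all genes. The 7 genes had a median interaction of -0.75, beside 0.00 over all genes.

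**Figure D1:**
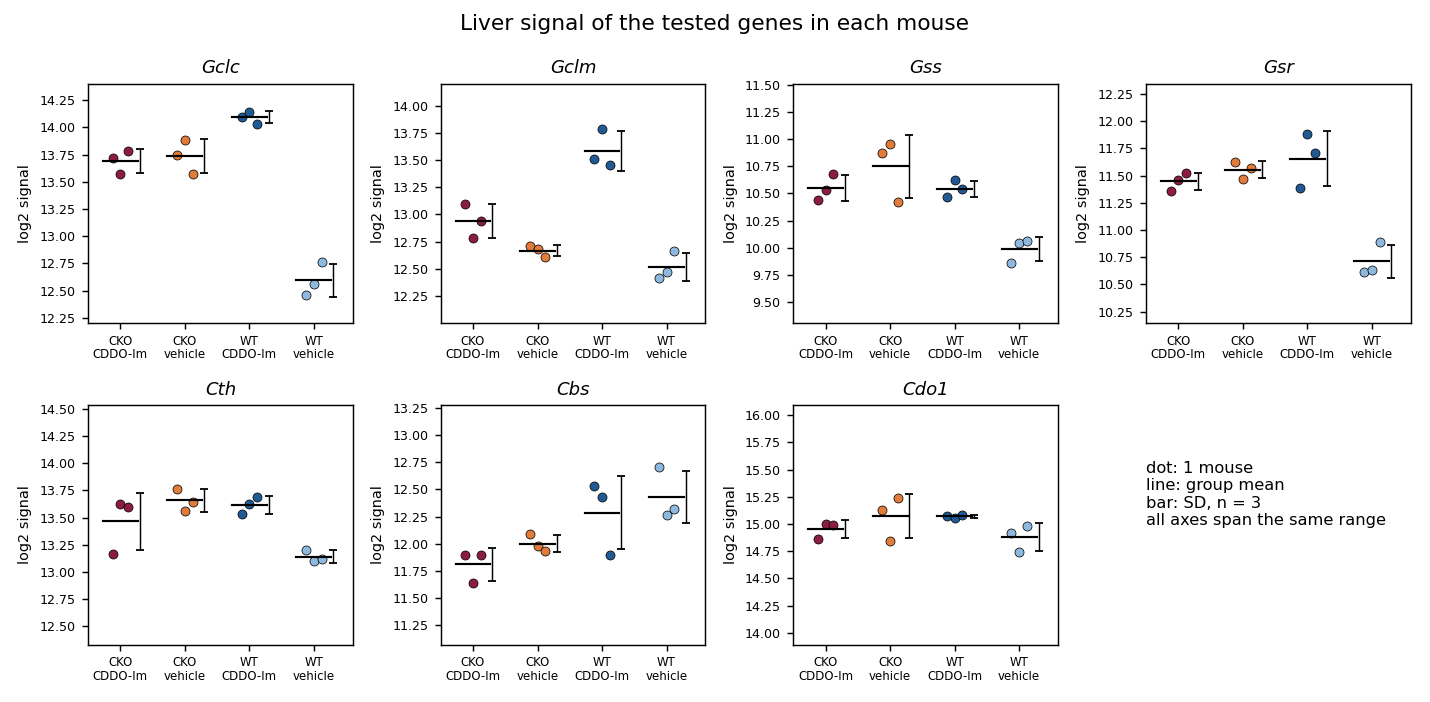
Log2 signal of the 7 tested genes in each of the 12 mice, 1 panel per gene, with dots for mice, lines for group means and bars for the SD (n = 3). For Gclc only WT vehicle stands far below the other groups, while for Gclm the WT CDDO-Im mice, at 13.45 to 13.79, stand above all the others.

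Gclc (chr9:77754535-77794489, GRCm38.p6) encodes the catalytic subunit of glutamate-cysteine ligase. Its brighter probe set, 1424296_at, gave 13.72, 13.57 and 13.79 in the CKO CDDO-Im mice and 13.75, 13.89 and 13.57 in the CKO vehicle mice. It gave 14.10, 14.14 and 14.04 in the WT CDDO-Im mice and 12.46, 12.56 and 12.76 in the WT vehicle mice. WT CDDO-Im livers were highest and WT vehicle livers lowest, and both CKO groups lay between them and overlapped each other. Gclc was 2.21-fold higher in CKO vehicle than in WT vehicle livers (log2 1.14 ± 0.11, SE, limma adjusted p = 0.000311). It was 2.83-fold higher in WT CDDO-Im than in WT vehicle livers (log2 1.50 ± 0.11, adjusted p = 0.000333), and this ranked 1 of 8338 genes by p in that comparison.

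In CKO livers the drug's change of Gclc was -0.05 ± 0.11 (adjusted p = 0.918), with a 95% interval of -0.28 to 0.19. All 3 CKO CDDO-Im mice lay below all 3 WT CDDO-Im mice, but the difference of -0.40 ± 0.11 did not pass (adjusted p = 0.0895). The interaction of -1.54 ± 0.15 did (adjusted p = 0.0052), and Gclc again ranked 1 of 8338 genes by p.

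Gclm (chr3:122245487-122267215, GRCm38.p6) encodes the modifier subunit, which has no catalytic activity of its own and makes the ligase more efficient. Its probe set 1418627_at gave 13.09, 12.78 and 12.94 in the CKO CDDO-Im mice and 12.71, 12.68 and 12.61 in the CKO vehicle mice. It gave 13.51, 13.79 and 13.45 in the WT CDDO-Im mice and 12.42, 12.47 and 12.66 in the WT vehicle mice. WT CDDO-Im livers stood clear of the rest, and the CKO vehicle and WT vehicle groups overlapped. Gclm was 2.10-fold higher in WT CDDO-Im than in WT vehicle livers (log2 1.07 ± 0.11, limma adjusted p = 0.000934).

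Between CKO vehicle and WT vehicle livers Gclm differed by 0.15 ± 0.11 (adjusted p = 0.473), and the 95% interval of -0.10 to 0.40 lies wholly below that of Gclc, 0.91 to 1.38. Gclm fell by 0.65 on the log2 scale in CKO CDDO-Im livers, against WT CDDO-Im (SE 0.11, adjusted p = 0.0224). That call was lost without CKO CDDO-Im mouse 3 or 4 or WT CDDO-Im mouse 2 or 3, with an adjusted p of up to 0.0852. Against the same WT CDDO-Im mice it fell by 0.92 in CKO vehicle livers (SE 0.11, adjusted p = 0.00327). Within CKO livers all 3 drug-treated mice lay above all 3 vehicle mice, with a change of 0.27 ± 0.11 that did not pass (adjusted p = 0.515). Its interaction of -0.80 ± 0.16 did not pass either (adjusted p = 0.0885).

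The balance of the subunit genes was taken as the log2 signal of Gclc minus that of Gclm in each mouse. Its zero has no meaning, since probe sets differ in brightness, but its differences between mice show unequal change. It was 0.62, 0.79 and 0.85 in the CKO CDDO-Im mice and 1.04, 1.21 and 0.96 in the CKO vehicle mice. It was 0.59, 0.35 and 0.59 in the WT CDDO-Im mice and 0.05, 0.09 and 0.10 in the WT vehicle mice. With these brightest probe sets no 2 groups overlapped, and the balance was most toward Gclc in CKO vehicle and least in WT vehicle livers.

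Over both treatments CKO livers exceeded WT livers in this balance by 0.62 (two-sided exact permutation test within treatments, p = 0.005, the smallest that the 400 arrangements can give). The 0.62 joins 0.99 between the vehicle groups and 0.24 between the drug groups. Over both genotypes CDDO-Im moved the balance by 0.06 (two-sided exact permutation test within genotypes, p = 0.69). That mean joins changes of opposite sign, 0.43 in WT livers and -0.32 in CKO livers, and the difference between these was not tested. Each single pair of groups gave an exact p of 0.1, the smallest that 3 mice against 3 allow. With the other probe sets of Gclc and Gclm in place of the brightest, the genotype difference was 0.52 to 0.79. Its exact permutation p was then 0.005 to 0.045. With 1439050_at for Gclm, the CKO CDDO-Im and WT CDDO-Im mice overlapped in the balance, whichever Gclc probe set was used. The pair 1424296_at and 1439050_at gave the 0.52 (exact permutation p = 0.045). Between these drug groups 1424296_at changed by -0.40 and 1439050_at by -0.41. With that pair the balance thus hardly differed between the drug groups, and the 0.52 came from the vehicle groups.

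**Figure D2:**
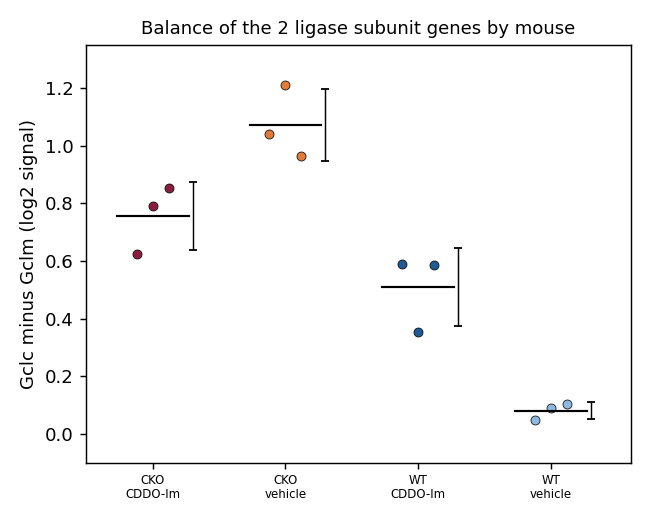
Log2 signal of Gclc minus log2 signal of Gclm in each mouse by group, with dots for mice, lines for group means and bars for the SD (n = 3). The means were 0.75 ± 0.12 in CKO CDDO-Im, 1.07 ± 0.13 in CKO vehicle, 0.51 ± 0.14 in WT CDDO-Im and 0.08 ± 0.03 in WT vehicle livers.

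RefSeq windows of 250 bases before to 50 bases after an annotated start site (GRCm38.p6) were used for 5 of the 9 genes. These were Gclm, Gss, Slc7a11, Ggt1 and Cbs. Windows are shown for the modifier subunit gene of the ligase, for the synthetase gene and for the cystine exchanger gene. A pair of short motifs were searched on both strands: the antioxidant response element core TGACNNNGC, which Nrf2 binds with a small Maf protein, and the amino acid response element TGATGNAA, which ATF4 binds with a C/EBP protein. Capitals mark the matches.
Gclm, chr3:122245307-122245606, plus strand: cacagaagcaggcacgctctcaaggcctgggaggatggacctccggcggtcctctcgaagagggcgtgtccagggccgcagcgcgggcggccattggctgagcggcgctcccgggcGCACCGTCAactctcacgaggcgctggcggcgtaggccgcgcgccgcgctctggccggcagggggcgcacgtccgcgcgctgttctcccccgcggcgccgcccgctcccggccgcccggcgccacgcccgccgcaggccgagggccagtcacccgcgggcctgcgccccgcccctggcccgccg
Gss, chr2:155592761-155593060, minus strand: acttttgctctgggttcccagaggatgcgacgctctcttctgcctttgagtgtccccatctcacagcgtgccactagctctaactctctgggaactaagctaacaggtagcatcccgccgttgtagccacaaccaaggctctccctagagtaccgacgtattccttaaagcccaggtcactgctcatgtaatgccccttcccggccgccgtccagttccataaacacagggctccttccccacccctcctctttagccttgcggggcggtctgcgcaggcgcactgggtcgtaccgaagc
Slc7a11, chr3:50443564-50443863, minus strand: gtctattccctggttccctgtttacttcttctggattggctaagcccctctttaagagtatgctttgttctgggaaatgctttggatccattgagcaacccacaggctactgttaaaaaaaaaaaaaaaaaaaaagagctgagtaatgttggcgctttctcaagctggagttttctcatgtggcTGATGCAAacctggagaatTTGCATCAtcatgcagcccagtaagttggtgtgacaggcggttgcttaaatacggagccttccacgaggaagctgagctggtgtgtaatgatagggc
The Gclm window held 1 antioxidant response element core, from -134 to -126 of the start site on the reverse strand. The Slc7a11 window held 2 amino acid response elements, from -66 to -59 on the gene's strand and from -47 to -40 on the other. Neither motif was found in the windows of Gss and Cbs, and 3 of the 4 Ggt1 windows held the antioxidant core. The 2 motifs do not overlap in these windows. Of 32851 RefSeq windows of the same length 12.4% held the antioxidant core and 3.97% the amino acid element, so a match describes the sequence and does not show a bound site. No window was at hand for Gclc, Gsr or Cth, and Cdo1 was left out of the search.

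Gss (chr2:155563181-155592810, GRCm38.p6), the synthetase that completes glutathione, gave 10.44, 10.54 and 10.68 in the CKO CDDO-Im mice and 10.88, 10.96 and 10.42 in the CKO vehicle mice. It gave 10.47, 10.62 and 10.54 in the WT CDDO-Im mice and 9.86, 10.05 and 10.06 in the WT vehicle mice. Only WT vehicle livers stood apart, below the other 3 groups, which overlapped each other. Gss rose in CKO vehicle against WT vehicle livers, 1.69-fold (log2 0.76 ± 0.13, limma adjusted p = 0.00961). In WT CDDO-Im against WT vehicle livers its change was 0.55 ± 0.13 with no overlap of the groups and did not pass (adjusted p = 0.052). Its interaction of -0.75 ± 0.19 did not pass (adjusted p = 0.188).

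Gsr (chr8:33653238-33698162, GRCm38.p6), glutathione reductase, gave 11.36, 11.46 and 11.52 in the CKO CDDO-Im mice and 11.63, 11.47 and 11.57 in the CKO vehicle mice. It gave 11.38, 11.88 and 11.71 in the WT CDDO-Im mice and 10.61, 10.63 and 10.89 in the WT vehicle mice. As for Gss, WT vehicle livers alone stood below the rest. Gsr rose 1.80-fold in CKO vehicle livers (log2 0.85 ± 0.13, limma adjusted p = 0.00374) and 1.93-fold in WT CDDO-Im livers (log2 0.95 ± 0.13, adjusted p = 0.00388), each against WT vehicle. In CKO livers the drug's change was -0.11 ± 0.13 (adjusted p = 0.826). The interaction of -1.06 ± 0.18 passed narrowly (adjusted p = 0.0492) and no longer passed in 10 of the 12 fits that left out 1 mouse, where the adjusted p reached 0.136.

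**Figure D3:**
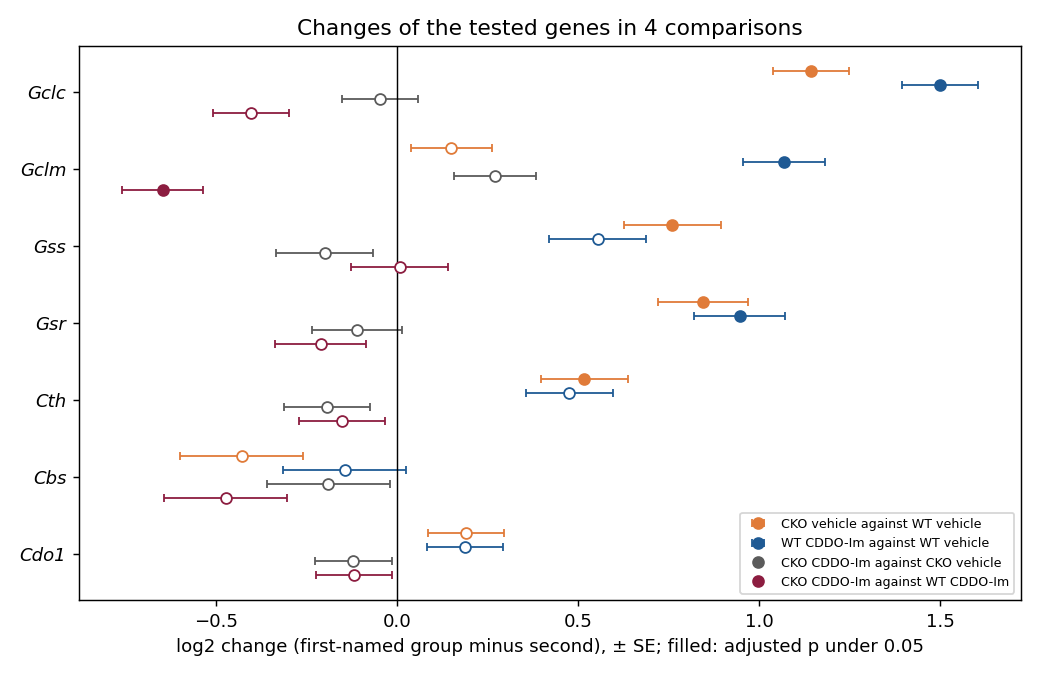
Log2 change with its SE for the 7 tested genes in 4 comparisons of the first-named group minus the other, where filled circles mark an adjusted p under 0.05. Gclc and Gsr are filled in both comparisons against WT vehicle, Gclm in WT CDDO-Im against WT vehicle and in CKO CDDO-Im against WT CDDO-Im, and no circle is filled for CKO CDDO-Im against CKO vehicle.

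Of the transsulfuration pair, Cth rose in CKO vehicle livers, while Cbs was called in no comparison. Cth (chr3:157894248-157925081, GRCm38.p6) encodes cystathionine gamma-lyase, which releases cysteine from cystathionine. It gave 13.17, 13.63 and 13.60 in the CKO CDDO-Im mice and 13.77, 13.56 and 13.65 in the CKO vehicle mice. It gave 13.53, 13.63 and 13.69 in the WT CDDO-Im mice and 13.21, 13.10 and 13.12 in the WT vehicle mice. WT vehicle livers were lowest, and the mouse CKO CDDO-Im 2 lay at their level. Cth rose in CKO vehicle against WT vehicle livers, 1.43-fold (log2 0.52 ± 0.12, limma adjusted p = 0.0301). This call was lost when CKO vehicle mouse 3 or 5 or WT vehicle mouse 1, 2 or 3 was left out, with an adjusted p of up to 0.112. In WT CDDO-Im against WT vehicle livers the change of 0.48 ± 0.12 did not pass (adjusted p = 0.0561).

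Cbs (chr17:31612623-31637233, GRCm38.p6), cystathionine beta-synthase, makes the cystathionine that Cth cleaves. Its brighter probe set gave 11.90, 11.64 and 11.90 in the CKO CDDO-Im mice and 12.09, 11.98 and 11.93 in the CKO vehicle mice. It gave 12.53, 12.43 and 11.90 in the WT CDDO-Im mice and 12.71, 12.26 and 12.32 in the WT vehicle mice. Both CKO groups lay below WT vehicle livers without overlap. The difference between the vehicle groups was -0.43 ± 0.17 and did not pass (limma adjusted p = 0.166), nor did that between the drug groups, -0.47 ± 0.17 (adjusted p = 0.201). The drug's change in WT livers was -0.14 ± 0.17 (adjusted p = 0.694).

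Cdo1 encodes cysteine dioxygenase, which commits cysteine to oxidation toward taurine and sulfate. It gave 14.86, 15.00 and 15.00 in the CKO CDDO-Im mice, 15.13, 14.85 and 15.24 in the CKO vehicle mice, 15.07, 15.06 and 15.08 in the WT CDDO-Im mice and 14.92, 14.74 and 14.99 in the WT vehicle mice. The group means lay within 0.19 of each other, the WT CDDO-Im mice all lay above the WT vehicle mice, and none of its changes passed. The change was 0.19 ± 0.11 in CKO vehicle (limma adjusted p = 0.325) and 0.19 ± 0.11 in WT CDDO-Im livers (adjusted p = 0.36), each against WT vehicle, with 95% intervals of -0.04 to 0.42 and -0.05 to 0.42.

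Slc7a11 (chr3:50364936-50499087, GRCm38.p6) encodes the light chain of the cystine and glutamate exchanger, which imports cystine. Its probe set 1443536_at gave 3.94, 2.56 and 4.86 in the CKO CDDO-Im mice and 6.21, 2.32 and 4.72 in the CKO vehicle mice. It gave 2.22, 2.24 and 2.22 in the WT CDDO-Im mice and 2.22 in each of the 3 WT vehicle mice, where 2.22 is the lowest value of the arrays. The lowest CKO mouse lay just above all 6 WT mice, and the CKO mice differed widely among themselves. The other probe set, 1420413_at, stayed between 2.22 and 2.46 on all 12 arrays. Both were left out by the filter, and with no filter (18193 genes) the change in CKO vehicle against WT vehicle livers was 2.20 ± 0.91 (limma adjusted p = 0.386). In CKO CDDO-Im against WT CDDO-Im livers it was 1.56 ± 0.91 (adjusted p = 0.753). How far such signals lie above the lowest value rests on the background step of GCRMA, and they are not given as linear folds.

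Values of 2 further genes, chosen after they were seen, stand beside this spread. Asns, asparagine synthetase, a gene of the amino acid stress list, was 8.08, 9.68 and 9.44 in the CKO CDDO-Im mice and 11.56, 6.83 and 10.51 in the CKO vehicle mice. It was 8.66, 5.26 and 5.85 in the WT CDDO-Im mice and 5.85, 6.83 and 6.95 in the WT vehicle mice. In the CKO vehicle group the mice stood in the same order for Slc7a11 and Asns. In the CKO CDDO-Im group they did not, and the mouse with the lowest Slc7a11 had the highest Asns signal. The change of Asns in CKO vehicle against WT vehicle livers, 3.09 ± 1.17, did not pass (limma adjusted p = 0.147). Slc3a2, the heavy chain that carries the exchanger to the cell surface, was 10.08 to 10.50 in CKO CDDO-Im, 10.16 to 11.64 in CKO vehicle, 9.70 to 10.31 in WT CDDO-Im and 9.94 to 10.31 in WT vehicle livers, and did not pass (adjusted p = 0.322 for the vehicle groups).

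**Figure D4:**
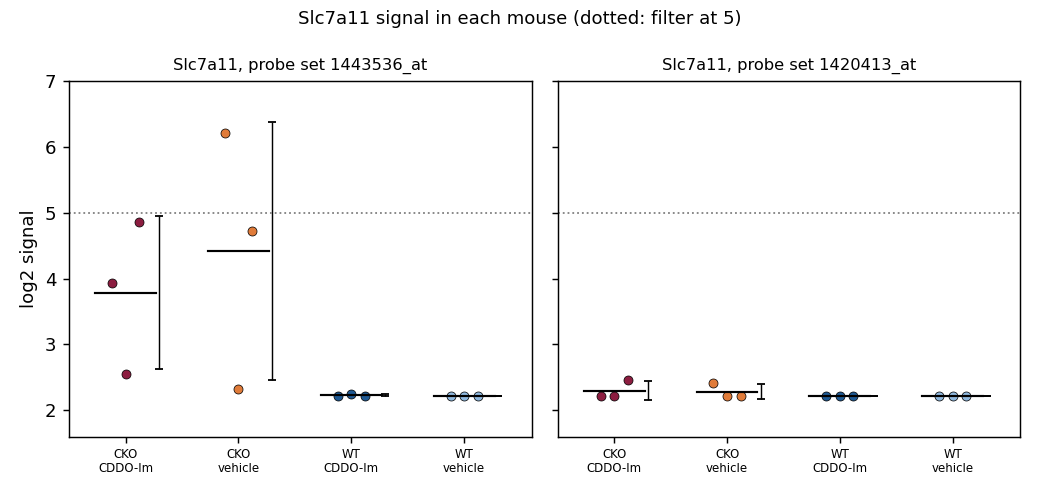
Log2 signal of the 2 Slc7a11 probe sets in each mouse, with dots for mice, lines for group means, bars for the SD (n = 3) and a dotted line at the filter of 5. With probe set 1443536_at the CKO mice spread from 2.32 to 6.21 and the WT mice lie at 2.22 to 2.24, while probe set 1420413_at stays at or near the lowest value in all groups.

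For 5 genes a further probe set passed the filter, and the probe sets of a gene moved the same way in 25 of 25 changes (5 genes in 5 comparisons). The changes differed by a median of 0.07 and by at most 0.28 on the log2 scale. Gclm showed that largest gap, with 1439050_at rising by 0.78 ± 0.14 in WT CDDO-Im against WT vehicle livers (limma adjusted p = 0.0135). In CKO vehicle against WT vehicle livers 1439050_at changed by 0.10 ± 0.14 (adjusted p = 0.713), while the other Gclc probe set, 1455959_s_at, rose by 1.30 ± 0.10. The calls differed in 2 of these 25 changes, which leave out the interaction. For Gclm the fall in CKO CDDO-Im against WT CDDO-Im livers was not called with 1439050_at, at -0.41 ± 0.14 (adjusted p = 0.189). For Gss in WT CDDO-Im against WT vehicle livers the brighter probe set passed in the probe set fit (adjusted p = 0.0498) and 1441931_x_at did not, at 0.46 ± 0.16 (adjusted p = 0.137).

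In that fit, over 13298 probe sets, 7 of the 12 probe sets were called in CKO vehicle and 7 in WT CDDO-Im livers, each against WT vehicle, beside 6.23% and 3.96% of all. In CKO CDDO-Im livers 0 of 12 were called against CKO vehicle (0% of all) and 1 against WT CDDO-Im (1.47% of all). In CKO vehicle against WT CDDO-Im livers 2 were called (3.73% of all), both of Gclm. The interaction was called for 3 (0.316% of all), both of Gclc and the brighter of Gsr. For the other Gsr probe set, 1421817_at, it was -1.24 ± 0.24 and not called (adjusted p = 0.0803), against an adjusted p of 0.0467 for the brighter one in that fit.

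**Figure D5:**
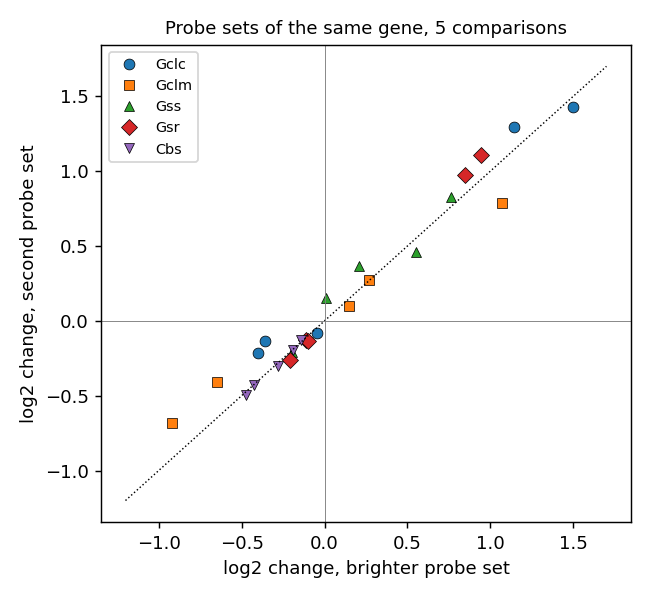
Log2 change measured by the brighter probe set of a gene against that by its other probe set, for 5 genes in 5 comparisons, with the dotted line where both are equal. All 25 points show the same sign in both probe sets, and the 2 Gclm probe sets lie farthest apart, by 0.28.

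Other genes of the pathway came from lists written with earlier results of these data known. The list of glutaredoxins and thiol use of glutathione also held genes of the thioredoxin system and of NADPH supply, and its called genes were among these. Of its 9 tested genes 3 rose in CKO vehicle and 3 in WT CDDO-Im livers, each against WT vehicle, beside 3.25% and 1.88% of all tested genes. The median change of the list was 0.30 and 0.28, beside -0.01 and -0.02 over all genes. Txnrd1, thioredoxin reductase, rose by 1.17 ± 0.13 in CKO vehicle (limma adjusted p = 0.000823) and by 1.40 ± 0.13 in WT CDDO-Im livers (adjusted p = 0.000477). Srxn1, sulfiredoxin, rose by 2.25 ± 0.25 and 3.07 ± 0.25 in these groups. Pgd, which makes NADPH in the pentose phosphate pathway, rose by 1.09 ± 0.14 and 1.01 ± 0.14. All 3 had a negative interaction that passed, and Srxn1, at -3.59 ± 0.36, had the most negative (adjusted p = 0.0052). None of these called genes is a glutaredoxin. The tested glutaredoxins (Glrx, Glrx2 and Glrx5), Glo1 and Hagh were not called in CKO vehicle or WT CDDO-Im livers against WT vehicle.

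Among transporters that export glutathione, its conjugates or other organic anions, or carry it into mitochondria, 4 of 11 rose and 1 fell in CKO vehicle against WT vehicle livers (3.25% and 3.26% of all genes), with a median of 0.69. Abcc4 rose most, with a mean signal of 11.05 ± 0.05 in CKO vehicle and 5.29 ± 0.38 in WT vehicle livers (SD, n = 3 each, limma adjusted p = 3.92e-06). Slco1a1, an organic anion uptake transporter, fell by 2.16 on the log2 scale. In WT CDDO-Im against WT vehicle livers 3 of the 11 rose, among them Abcc4, by 1.67 ± 0.28 (adjusted p = 0.011), and none fell, with a median of 0.31 (1.88% and 1.76% of all genes). Another of the 3, Abcc1, passed the filter only through CDDO-Im arrays, so its call is no support. Of 8 cystine, cysteine and glutamate transporters 1 rose in CKO vehicle and none in WT CDDO-Im livers, each against WT vehicle. The medians were 0.05 in both, and 3.25% and 1.88% of all genes rose. The called gene was Slc1a1, a carrier of glutamate and cysteine. It passed the filter on low signal only through its CKO arrays, so it had to differ, and its values are given as a description with no test. It gave 7.13, 7.37 and 6.24 in the CKO vehicle mice, against 2.63, 2.66 and 2.63 in the WT vehicle mice. It gave 6.96, 7.51 and 7.26 in the CKO CDDO-Im mice, against 2.62, 2.63 and 2.63 in the WT CDDO-Im mice. All 6 CKO mice lay far above all 6 WT mice, which stood near the lowest value of the arrays.

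Of 10 tested genes of the methionine cycle none passed in any comparison, and the largest change in CKO vehicle against WT vehicle livers was that of Ahcyl1, 0.41 ± 0.15 (limma adjusted p = 0.132). Of 10 tested genes of cysteine breakdown and taurine synthesis 3 rose in CKO vehicle and 2 in WT CDDO-Im livers, each against WT vehicle (3.25% and 1.88% of all genes), with medians of 0.04 and 0.00. Ethe1, a mitochondrial persulfide dioxygenase, rose by 1.04 ± 0.21 in CKO vehicle livers (adjusted p = 0.0176). Got1, the cytosolic aspartate aminotransferase, rose by 1.03 ± 0.26 in CKO vehicle and by 1.12 ± 0.26 in WT CDDO-Im livers. Of 8 genes of glutathione breakdown Ggt6 alone rose in CKO vehicle livers, by 0.57 ± 0.12 (adjusted p = 0.0184), and none rose in WT CDDO-Im livers. The list medians were 0.14 and -0.07, and 3.25% and 1.88% of all genes rose. Anpep, an aminopeptidase of the cell surface, fell by 1.06 on the log2 scale in CKO vehicle and by 0.82 in WT CDDO-Im livers, each against WT vehicle. In these comparisons 3.26% and 1.76% of all genes fell. Of 10 amino acid stress genes 1 rose in CKO vehicle livers, Eif4ebp1, by 0.91 ± 0.18 (adjusted p = 0.014), and none in WT CDDO-Im livers. Beside this, 3.25% and 1.88% of all genes rose, and the list medians were 0.21 and 0.05. In CKO CDDO-Im against CKO vehicle livers none of these lists held a called gene, where 0% of all genes rose and 0% fell.

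The genes nearest in pattern to each ligase subunit were taken by the root mean square difference, over the 12 arrays, of log2 signal minus the gene's own WT vehicle mean. Predicted genes, pseudogenes and clones, known by their symbols, were left out of the lists of nearest genes. Nearest to Gclc were Txnrd1 (0.124), Ugdh (0.214), Abhd4 (0.224), Treml4 (0.249) and Pir (0.256). Nearest to Gclm were Dennd4c (0.207), Crtc2 (0.223), Mafg (0.228), H6pd (0.235) and Znrf1 (0.249). Gclm itself stood at 0.643 from Gclc, and 131 genes, counted over all tested genes with none left out, were nearer to Gclc than it was. Relative to WT vehicle, the 5 genes nearest to Gclc averaged 0.81 to 1.44 in CKO vehicle livers, and the 5 nearest to Gclm averaged 0.04 to 0.51. In WT CDDO-Im livers they averaged 1.15 to 1.40 and 0.68 to 1.02. As they were picked for this likeness, these values are a description.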

How the data were processed

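Total RNA from 12 livers was hybridised to 1 Affymetrix array each. The authors deposited log2 signals. Per the submitters' processing notes they came from GCRMA 2.12.1 under R 2.7.0, with settings not given in the sources used here. All 45101 probe sets had values on all arrays (0 missing, array medians 2.32 to 2.34), and no 2 arrays were identical. Probe sets were named through the platform annotation, and 34945 name 1 gene. Each of 18193 genes was represented by its probe set of highest mean, and the 8338 with at least 3 arrays over 5 were tested. With limma 3.58.1 (R 4.3.3) the 4 group means were estimated from all arrays, with two-sided p-values adjusted by Benjamini-Hochberg over all genes, and again over 13298 probe sets. Intervals are 95%. The script was tested on simulated data. Promoter windows, gene positions and symbols came from RefSeq tables of GRCm38.p6.

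Named were all 9 genes with every probe set, the checks Keap1, Nfe2l2 and Nqo1, and the 5 nearest patterns. Per list and comparison up to 2 called risers and fallers were picked (or the largest change where none was called). Not all picks are printed above. Among those left out, Abcc5 rose by 3.96 ± 0.27 in CKO vehicle and Fmo1 by 0.43 ± 0.09 in WT CDDO-Im livers, each against WT vehicle. Srxn1 fell by 1.33 on the log2 scale in CKO CDDO-Im against WT CDDO-Im livers. Some genes, such as Pgd, Asns, Slc3a2 and Kdr, were named outside this rule. Nfe2l2, which encodes Nrf2, changed by -0.76 ± 0.14 (adjusted p = 0.0102) and its target Nqo1 by 4.86 ± 0.35 in CKO vehicle against WT vehicle livers (adjusted p = 4.55e-05, limma). The genes and lists were chosen with earlier results of these data known. Replicate numbers recur between groups. Deviations from the group means correlated over 0.1 in 3 of 12 same-numbered pairs (-0.17 to 0.15, median 0.06). They did so in 8 of 42 other pairs (-0.25 to 0.25, median 0.007). The ranges overlap, and the numbers were not taken to pair mice, though the correlations do not settle this. Alternatives covered normalization, filter, floor, probe set choice, variance model, samples in the fit, the replicate block and each mouse left out.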

Additional observations from a re-analysis of the deposited data

Results flagged for a closer look

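For Gclc and Gsr the drug's changes in the 2 genotypes differed in the main fit by a test of the difference itself. The interaction was -1.54 for Gclc and -1.06 for Gsr on the log2 scale (limma adjusted p = 0.0052 and 0.0492). For Gsr it was not called with the other probe set, 1421817_at (-1.24, adjusted p = 0.0803). The Gsr call was also lost in 10 of the 12 fits that left out 1 mouse. Quantile normalization and no filter cost it too (limma adjusted p = 0.0532 and 0.177). With the replicate block neither interaction was called (limma adjusted p = 0.0907 for Gclc and 0.27 for Gsr). For Gclc the genotype difference also changed sign with treatment, at 1.14 between the vehicle groups and -0.40 between the drug groups, without overlap of the mice in either. The difference between the drug groups was not called (adjusted p = 0.0895), and with the other Gclc probe set, 1455959_s_at, it was -0.22 (adjusted p = 0.323). The balance of Gclc and Gclm moved in opposite directions with the drug, by 0.43 in WT and by -0.32 in CKO livers, again without overlap, and the difference between these changes was not tested. Slc7a11, which the filter kept out of the tests, reached 6.21 with probe set 1443536_at in CKO vehicle mouse 3, where all WT mice stood at 2.22 to 2.24.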

How the results depend on the processing

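No direction of a called result reversed. In CKO vehicle against WT vehicle livers the count of called genes among the 7 fell to 2 with the replicate block (Gclc and Gss) and was 3 to 4 with a mouse left out. In WT CDDO-Im against WT vehicle livers it was 5 with a filter at 7 or an intensity trend, and 3 to 4 with a mouse left out. In CKO CDDO-Im against WT CDDO-Im livers it was 0 with no filter, the mean of a gene's probe sets, only the groups compared or the replicate block, and 0 to 1 with a mouse left out. There the fall of Gclm was lost without CKO CDDO-Im mouse 3 or 4 or WT CDDO-Im mouse 2 or 3 (adjusted p up to 0.0852). For the interaction it was 1 with quantile normalization or no filter, 0 with the replicate block and 1 to 2 with a mouse left out. The replicate block, which the main fit did not use, also cost Gsr its call in CKO vehicle (limma adjusted p = 0.0901) and Gclc its interaction (adjusted p = 0.0907). Fitting only the groups compared cost Gss its call in CKO vehicle (adjusted p = 0.0751) and Gsr its call in WT CDDO-Im livers (adjusted p = 0.0635). With only the groups compared the changes themselves were as in the main fit, 0.76 for Gss and 0.95 for Gsr. With the replicate block the change of Gsr was 0.68 and the interaction of Gclc -1.52. What else lay behind these losses was not tested. The genotype difference in the balance of Gclc and Gclm was 0.58 to 0.65 with a mouse left out (exact permutation p up to 0.01). It was 0.39 with each mouse's value centred on the mean of its replicate number (exact permutation p = 0.02). Replicate numbers 1 and 5 each occur in a single group, so this centring also removed part of the genotype difference. Of the changes of single genes, 393 stayed on their side of the threshold under settings other than a mouse left out, 13 lost their call and 7 gained one. With a mouse left out these numbers were 481, 19 and 4. Over all genes, calls in CKO vehicle against WT vehicle livers numbered 543, against 232 with no filter, 223 with only the groups compared and 55 with the replicate block. In WT CDDO-Im against WT vehicle livers they numbered 304, against 124, 85 and 114. In CKO CDDO-Im against WT CDDO-Im livers they numbered 128, against 29, 56 and 42. In CKO vehicle against WT CDDO-Im livers they numbered 358, against 119, 112 and 150, and for the interaction 23, against 7 with no filter and 3 with the replicate block. With a mouse left out these counts over all genes were 275 to 537 in CKO vehicle against WT vehicle livers and fell by over 1.5 times without CKO vehicle mouse 3 (275) or WT vehicle mouse 1 (302). They were 106 to 318 in WT CDDO-Im against WT vehicle livers, lowest without WT CDDO-Im mouse 4 (106) or 3 (163) or WT vehicle mouse 2 (165) or 3 (187). They were 32 to 139 in CKO CDDO-Im against WT CDDO-Im livers, with 32 to 76 without any 1 mouse of the WT CDDO-Im group and 34 to 48 without any 1 of the CKO CDDO-Im group. They were 108 to 379 in CKO vehicle against WT CDDO-Im livers, with 108 without CKO vehicle mouse 3, 182 without mouse 4 and 126 to 211 without any 1 WT CDDO-Im mouse. For the interaction they were 2 to 31, with 2 without CKO CDDO-Im mouse 2. They were over 1.5 times fewer than 23 without each mouse but WT vehicle 2 (25) and 3 (31). They were 0 to 1 in CKO CDDO-Im against CKO vehicle livers, with 1 without CKO vehicle mouse 5.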
